A study of Mus musculus with 7 samples.

Results

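Collagen chain genes encode the alpha chains that fold 3 at a time into collagen proteins. In C2C12 cells given exosomes, 28 of them were measured above background. They were chosen as the genes whose name on the array is Col, a number, a and a number, with a probe well above background on at least 3 arrays of 1 group. The array held 59 such probes of 40 gene names, of 31829 gene names in all. Of these, 32 probes of 28 genes passed and 12 gene names did not. Among the 28 genes, 21 passed on 3 arrays of both groups, 7 passed through the EXO-Post BSA arrays alone (Col4a5, Col9a1, Col10a1, Col14a1, Col24a1, Col25a1 and Col27a1) and 0 through the EXO-Post Palm arrays alone, so counts over the 28 lean towards genes that were measurable in the control group.

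C2C12 is a mouse muscle cell line that grows as myoblasts and fuses into myotubes in low serum. Donor C2C12 cells were treated with 0.5 mmol/l palmitate or with BSA, the albumin that carries the fatty acid, and their exosomes, small vesicles released by cells, were harvested 9 h after the palmitate was taken away. Recipient C2C12 cells were then kept for 24 h with exosomes of the BSA-treated donors (EXO-Post BSA, 4 arrays) or of the palmitate-treated donors (EXO-Post Palm, 3 arrays). Both groups thus received exosomes, and no array of cells without exosomes was used here. The labels call the recipient cells myoblasts, whereas the study's methods describe differentiated myotubes. All 15 markers of differentiated muscle on a list of such genes, among them Myog, Myh3 and Ckm, passed the filter, and so did 8 of 9 genes of myoblasts and dividing cells.

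Collagens are the main proteins of the extracellular matrix, and their chains share a repeat in which glycine recurs at every 3 amino acids. Fibrillar collagens (types I, II, III, V, XI, XXIV and XXVII) form the fibrils of connective tissue. Type IV forms the network of the basement membrane that wraps each muscle fibre, type VI forms beaded filaments that link this membrane to the surrounding matrix, and type VIII forms short-chain networks under endothelia and in vessel walls. FACIT collagens sit on the surface of fibrils, multiplexins anchor basement membranes to them, and type VII makes anchoring fibrils. In muscle most fibrillar collagen is made by fibroblasts, but muscle cell lines also transcribe these genes.

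The glycine repeat ran through the whole length of 1 of the 32 tested probes, which is shown for that reason. The 60-base probe of Col25a1, a transmembrane collagen, lies at chr3:130270497-130270556 on the plus strand of the build mm9 that the file headers name. Triplets of GG and any base, the letters of a glycine codon, stand at every 9 bases of it and are in capitals here. The files do not annotate the part of the mRNA it reads.

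Col25a1 probe: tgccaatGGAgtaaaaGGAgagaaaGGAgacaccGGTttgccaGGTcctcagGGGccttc

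The 250 bases before the start of 4 collagen genes are shown because these chains of types VIII, I and VI are among the 10 that were lower at an unadjusted p of 0.05. They come from the RefSeq table of build GRCm38.p6 and are printed 5′ to 3′ on the gene's own strand, with GGGCGG or CCAAT in capitals wherever these letters occur on either strand (CCGCCC and ATTGG are the same letters read on the other strand). Col8a1 is at chr16:57754738-57754987 on the minus strand, Col8a2 at chr4:126286544-126286793 on the plus strand, Col1a2 at chr6:4505368-4505617 on the plus strand and Col6a1 at chr10:76726045-76726294 on the minus strand.

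Col8a1: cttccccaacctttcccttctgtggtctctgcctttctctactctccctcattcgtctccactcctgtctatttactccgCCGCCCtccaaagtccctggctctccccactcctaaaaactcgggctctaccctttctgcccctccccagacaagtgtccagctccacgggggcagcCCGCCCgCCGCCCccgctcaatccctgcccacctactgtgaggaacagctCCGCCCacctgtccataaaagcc

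Col8a2: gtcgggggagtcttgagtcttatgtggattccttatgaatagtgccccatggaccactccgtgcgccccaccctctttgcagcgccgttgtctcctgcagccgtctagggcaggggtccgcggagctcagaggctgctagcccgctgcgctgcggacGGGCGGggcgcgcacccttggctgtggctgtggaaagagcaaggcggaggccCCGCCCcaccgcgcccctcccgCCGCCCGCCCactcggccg

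Col1a2: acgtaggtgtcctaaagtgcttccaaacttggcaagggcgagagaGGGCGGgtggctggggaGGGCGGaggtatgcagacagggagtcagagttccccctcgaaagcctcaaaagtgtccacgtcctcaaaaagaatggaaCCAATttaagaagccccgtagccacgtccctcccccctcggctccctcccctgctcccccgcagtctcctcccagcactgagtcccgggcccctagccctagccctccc

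Col6a1: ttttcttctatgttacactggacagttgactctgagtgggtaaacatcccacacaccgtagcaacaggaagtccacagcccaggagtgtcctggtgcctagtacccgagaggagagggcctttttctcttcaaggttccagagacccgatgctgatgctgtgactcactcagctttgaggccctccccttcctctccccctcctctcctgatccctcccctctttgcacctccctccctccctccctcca

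The windows of Col8a1 and Col8a2 each held GGGCGG 4 times and CCAAT 0 times, with 2 of the occurrences in Col8a2 overlapping. The window of Col1a2 held GGGCGG 2 times and CCAAT 1 time, and that of Col6a1 held neither. The table gave 27 windows for 24 of the 28 genes, Col1a1, Col5a2, Col12a1 and Col14a1 being without an entry. GGGCGG was in 17 of these 27 windows and in 32.7% of all 32851 windows of that length. CCAAT was in 11 of 27 against 33.8%, and TATAAA in 3 of 27 against 12.4%. Among the 17 windows of genes with a lower signal in EXO-Post Palm, 10 held GGGCGG, and so did 7 of the 10 windows of genes with a higher one, so these letters were present on both sides.

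Values are given below as normalised log2 signal, which is the log2 of the processed spot intensity minus the log2 of the 75th percentile of the same array. Differences are EXO-Post Palm minus EXO-Post BSA on that scale, so that 1 unit is a doubling, and the signal of one gene's probe is never set against that of another. The difference of each gene was fitted with limma over all 21589 probes that passed the filter, and adjusted p-values are Benjamini-Hochberg values over all of them. Exact permutation p-values are two-sided over the 35 possible splits of the 7 arrays, the smallest possible being 0.0286.

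Between 48.3% and 70.3% of the 39429 probes were well above background on each array. The 7 arrays were spread over 4 slides, of which 2 carried both groups: slide 1 (control replicates 1 and 2, EXO-Post Palm replicate 1) and slide 3 (control replicate 4, EXO-Post Palm replicate 3). Control replicate 3 on slide 2 and EXO-Post Palm replicate 2 on slide 4 had no array of the other group beside them. The signal of control replicate 3 was extracted with another version of the Agilent Feature Extraction software.

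Over the family, 64.3% of the 28 genes had a lower signal in cells given EXO-Post Palm, against 53.5% of all genes tested, and 1 of them, Col8a1, fell past an adjusted p of 0.05, against 0.0744% of all genes tested that fell. No collagen gene passed in the other direction, where 0.486% of all genes did. The difference was below 0 for 18 genes and above 0 for 10, and its median was -0.38 against -0.031 over all 17477 genes tested. With slide as a block 16 genes were below 0 and 12 above, and without EXO-Post BSA replicate 4 the split was 23 and 5. At an unadjusted p of 0.05, 10 genes were lower, against 5.46% of all genes, and 1 was higher, against 4.7%. All 3 EXO-Post Palm arrays lay below all 4 EXO-Post BSA arrays for 7 genes (Col1a1, Col5a1, Col5a3, Col6a1, Col8a1, Col8a2 and Col18a1), against 5.98% of all genes, and above them for 1 gene, Col7a1, against 5.13%. Within both slides that held both groups the difference was below 0 for 14 genes, against 30.3% of all genes, and above 0 for 3, against 27.8%. Col4a5, Col14a1 and Col24a1 on the lower side and Col27a1 on the higher side had passed the filter through the EXO-Post BSA arrays alone. In these bulk samples, fewer cells that make a collagen and less of its mRNA per cell cannot be told apart.

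**Figure D1:**
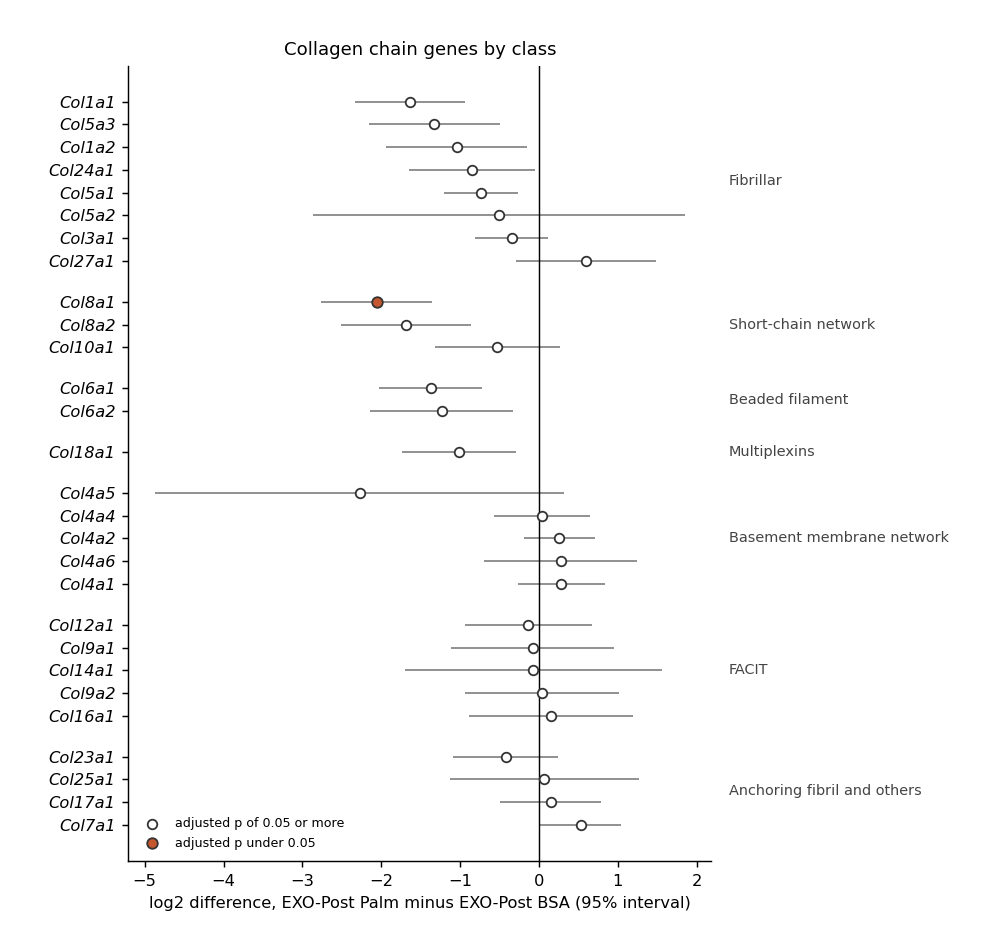
Log2 difference of each of the 28 collagen chain genes, EXO-Post Palm minus EXO-Post BSA, with its 95% interval from limma, grouped by class. Col8a1, the filled point at -2.06, is the only gene past an adjusted p of 0.05. The fibrillar, short-chain and beaded filament genes lie mostly left of 0, and the type IV genes other than Col4a5 lie between 0.041 and 0.28, of which Col4a4 and Col4a6 turn below 0 on the authors' processed values.

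The short-chain collagens had the lowest class median, -1.68 over 3 tested genes, all of them lower. Of these, Col10a1 had passed the filter through the EXO-Post BSA arrays alone, where it was higher. Col8a1 and Col8a2 encode the α1 and α2 chains of type VIII collagen. The normalised log2 signal of Col8a1 was 1.77, 1.19, 1.20 and 1.23 on the EXO-Post BSA arrays, in the order of their replicate numbers, and -0.022, -0.99 and -1.13 in EXO-Post Palm. Every EXO-Post Palm array lay more than 1 unit below every EXO-Post BSA array, and the gap between the groups was wider than the range within either. The difference of -2.06 ± 0.31 (standard error, n = 4 and 3 arrays), a 4.16-fold lower signal, passed in limma (adjusted p = 0.0339), with an exact permutation p of 0.0286. It was -1.50 within slide 1 and -2.35 within slide 3. The call was lost when any 1 of the 7 arrays was left out, with limma adjusted p-values from 0.0548 to 0.140 and differences from -2.40 to -1.85, and with slide as a block (adjusted p = 0.0834), where the one collagen gene called lower, against 0.0556% of all probes, was Col8a2.

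Col8a2 had a normalised log2 signal of -1.31, -1.52, -1.04 and -2.13 in EXO-Post BSA and -3.31, -2.47 and -3.76 in EXO-Post Palm. The groups did not overlap, and EXO-Post Palm replicate 2 was the nearest to the control range. The difference of -1.68 ± 0.36 had a limma adjusted p of 0.124 and an exact permutation p of 0.0286. The limma adjusted p was 0.0471 with slide as a block, where the difference was -1.78, and 0.0395 without EXO-Post Palm replicate 2, where it was -2.04. The difference of Col8a2 shrank to -0.95 (limma adjusted p = 0.170) with normexp and to -0.89 (limma adjusted p = 0.182) with floored subtraction, each with quantile normalisation, and was -1.26 (limma adjusted p = 0.159) on the authors' processed values. The third member, Col10a1, the network collagen of growing cartilage, overlapped between the groups, with a difference of -0.53 ± 0.35 (limma adjusted p = 0.656).

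Of the fibrillar genes, 8 were tested and 3 were not (Col2a1, Col11a1 and Col11a2, the cartilage fibril chains). The difference was below 0 for 7 of the 8, with a median of -0.79, and no gene passed an adjusted p of 0.05, while 5 were lower at an unadjusted p of 0.05, against 5.46% of all genes. One of these 5, Col24a1, had passed the filter through the EXO-Post BSA arrays alone, where it was high. Col1a1 encodes the α1 chain of type I collagen, the main collagen of tendon, bone and muscle connective tissue. Its normalised log2 signal was 5.10, 4.61, 4.67 and 4.70 in EXO-Post BSA and 3.64, 2.44 and 3.32 in EXO-Post Palm. All 3 EXO-Post Palm arrays were lower than all 4 control arrays, with replicate 2 the lowest. The difference of -1.64 ± 0.31, a 3.11-fold lower signal, had a limma adjusted p of 0.0701 and an exact permutation p of 0.0286, and it was -1.22 within slide 1 and -1.39 within slide 3. On the authors' own processed values of the same arrays, limma gave -1.74 for Col1a1 with an adjusted p of 0.0498, and with slide as a block it gave -1.29 with an adjusted p of 0.154.

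Col1a2 encodes the α2 chain that pairs with 2 α1 chains in type I collagen. Its normalised log2 signal was 6.99, 6.73, 7.44 and 7.05 in EXO-Post BSA and 5.49, 7.03 and 5.51 in EXO-Post Palm. EXO-Post Palm replicates 1 and 3 were more than 1 unit below every control array, whereas replicate 2, alone on its slide, was inside the control range. The difference of -1.05 ± 0.39 did not pass in limma (adjusted p = 0.428), and it was -1.56 with an adjusted p of 0.0406 when EXO-Post Palm replicate 2 was left out. On that same array Col1a1 was at its lowest.

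Type V collagen forms the core of type I fibrils and sets their width. Col5a3, its α3 chain, had a normalised log2 signal of 2.73, 2.50, 3.15 and 2.91 in EXO-Post BSA and 0.99, 2.42 and 1.07 in EXO-Post Palm. The groups did not overlap, but EXO-Post Palm replicate 2 was within 0.1 of the lowest control array. The difference of -1.33 ± 0.36 had a limma adjusted p of 0.234, and -1.79 with an adjusted p of 0.0225 without that array. Col5a1, its α1 chain, described here because its values were seen, was at 4.10, 4.20, 3.81 and 4.18 in EXO-Post BSA and at 3.19, 3.53 and 3.28 in EXO-Post Palm. Both groups were narrow and did not overlap, with a difference of -0.73 ± 0.20 (limma adjusted p = 0.242, exact permutation p = 0.0286). On the authors' processed values it was -0.44 (limma adjusted p = 0.617).

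Col5a2, the α2 chain of type V, also described because its values were seen, was at 1.51, 1.41, 1.69 and -2.37 in EXO-Post BSA and at 1.15, 0.55 and -1.55 in EXO-Post Palm. The low array of each group was the one on slide 3, and the difference of -0.51 ± 1.04 (limma adjusted p = 0.902) was 0.18 with slide as a block. Col3a1, the chain of type III collagen, lies next to Col5a2 on chromosome 1. Its signal was 6.80, 6.83, 6.48 and 6.57 in EXO-Post BSA and 6.23, 6.21 and 6.53 in EXO-Post Palm. The groups overlapped through EXO-Post Palm replicate 3, the arrays of slide 3 lay among the others, and the difference was -0.35 ± 0.20 (limma adjusted p = 0.615, 95% interval -0.81 to 0.11) and -0.55 on the authors' processed values (limma adjusted p = 0.378). Of the remaining fibrillar genes, Col24a1 was below 0 at -0.85 and Col27a1 above 0 at 0.60, and each was well above background on fewer than 3 EXO-Post Palm arrays.

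**Figure D2:**
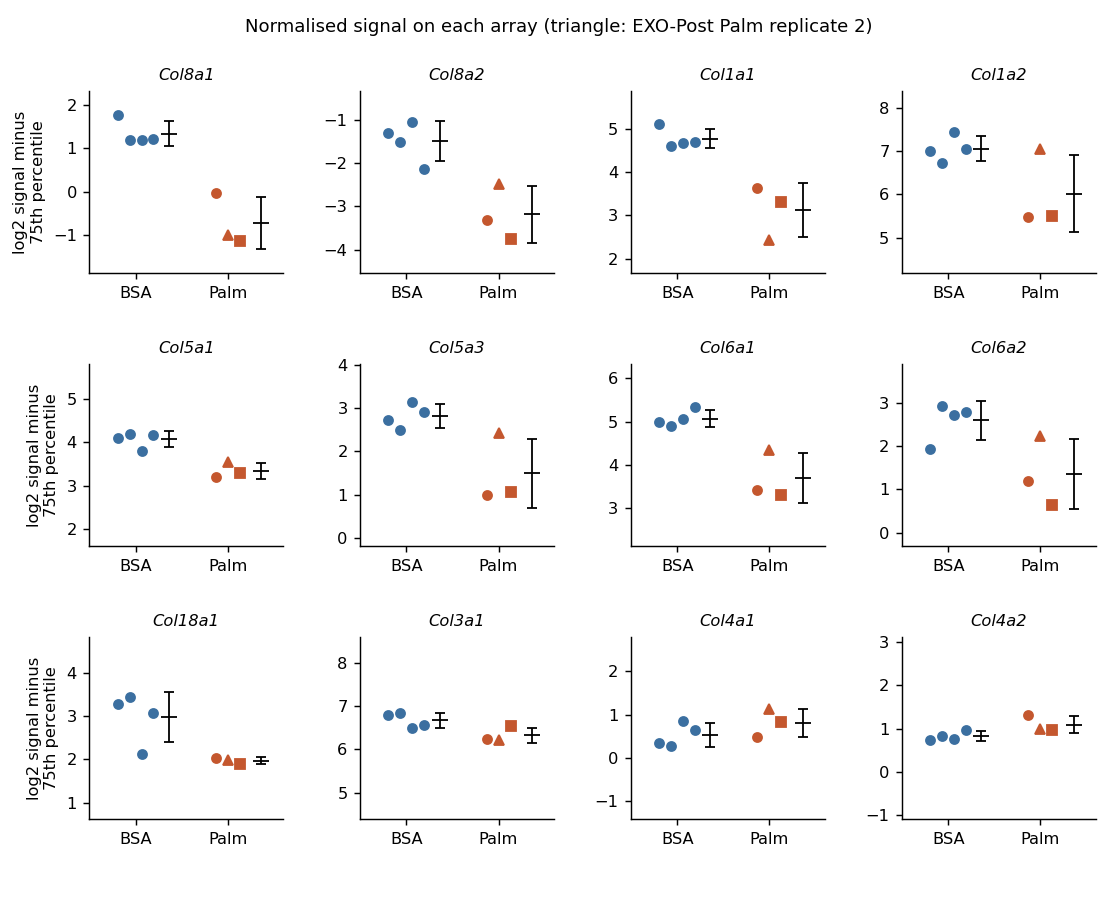
Normalised log2 signal of 12 collagen genes on each array (points; EXO-Post BSA in blue, EXO-Post Palm in orange, with a triangle for replicate 2 and a square for replicate 3), with the group mean and SD beside them; every panel spans the same number of log2 units. The groups are apart for Col8a1, Col8a2, Col1a1, Col5a1, Col5a3, Col6a1 and Col18a1, and the triangle stands with the controls for Col1a2, at 7.03.

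The beaded filament genes Col6a1 and Col6a2 were both lower, with a class median of -1.30. They encode the α1 and α2 chains of type VI collagen, whose mutations cause muscle disease, and lie near each other on chromosome 10. Col6a6 was not tested, and the names Col6a3, Col6a4 and Col6a5 had no probe on the array. Col6a1 had a normalised log2 signal of 4.99, 4.90, 5.06 and 5.34 in EXO-Post BSA and 3.43, 4.36 and 3.31 in EXO-Post Palm. The groups did not overlap, and EXO-Post Palm replicate 2 was about 1 unit above the other two. The difference of -1.37 ± 0.29, a 2.59-fold lower signal, had a limma adjusted p of 0.112 and an exact permutation p of 0.0286. It was -1.52 within slide 1 and -2.02 within slide 3, and leaving out EXO-Post Palm replicate 2 gave -1.70 (limma adjusted p = 0.0195).

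Col6a2 had its EXO-Post Palm arrays in the same order, at 1.93, 2.93, 2.72 and 2.77 in EXO-Post BSA and at 1.18, 2.23 and 0.65 in EXO-Post Palm. EXO-Post Palm replicate 2 was above the lowest control array, so the groups overlapped. The difference of -1.23 ± 0.40 had a limma adjusted p of 0.334 and an exact permutation p of 0.0857, and it was -1.25 within slide 1 and -2.13 within slide 3.

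Of the multiplexins, Col18a1 was tested and Col15a1, whose 3 probes missed the filter, was not. Col18a1 is a collagen of basement membranes whose end fragment is endostatin. The brighter of its 2 probes, at chr10:76514926-76514985 in mm9, gave 3.28, 3.44, 2.13 and 3.07 in EXO-Post BSA and 2.04, 1.98 and 1.89 in EXO-Post Palm. The EXO-Post Palm arrays lay close together and just under the lowest control array, and the difference was -1.01 ± 0.32 (limma adjusted p = 0.319, exact permutation p = 0.0571). The other probe, at chr10:76515790-76515849, gave a smaller difference of -0.36 ± 0.33 (limma adjusted p = 0.76), with groups that overlapped. The files do not annotate exons, so which part of the mRNA each probe reads is not given here.

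Of the basement membrane collagens, 5 genes were tested, 4 had a difference above 0, of which Col4a4 and Col4a6 were below 0 on the authors' processed values, and the class median was 0.26, with no gene at an unadjusted p under 0.05. Col4a1 and Col4a2 encode the α1 and α2 chains of the common type IV trimer, and they start 21 bases apart on opposite strands of chromosome 8 in the RefSeq table. Col4a1 had a normalised log2 signal of 0.35, 0.27, 0.85 and 0.64 in EXO-Post BSA and 0.49, 1.12 and 0.82 in EXO-Post Palm. Its groups overlapped, with a difference of 0.28 ± 0.24 and a 95% interval of -0.27 to 0.84 (limma adjusted p = 0.739).

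Col4a2 was at 0.73, 0.84, 0.77 and 0.98 in EXO-Post BSA and at 1.31, 0.98 and 0.97 in EXO-Post Palm. Its spread within groups, 0.15, was the smallest of the 28 genes, and the difference of 0.26 ± 0.20 (limma adjusted p = 0.698) had a 95% interval of -0.19 to 0.71. The interval leaves out a halving of either gene, which would be a difference of -1.

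Col4a4 and Col4a6, chains of the type IV networks of specialised membranes, overlapped between the groups, with differences of 0.041 and 0.28. Both turned sign on the authors' processed values, to -0.13 and -0.020. Col4a3 was not well above background on any array. Col4a5 had the lowest difference of the family, -2.27 ± 1.14 (limma adjusted p = 0.559), but this came from 1 array. Its signal was -0.73, -0.94, -1.54 and -1.11 in EXO-Post BSA and -1.44, -1.76 and -6.87 in EXO-Post Palm, where replicate 3 was not well above background. Without that array the difference of Col4a5 was -0.52.

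The FACIT collagens overlapped between the groups. Of 9 on the array, 5 were tested, with differences from -0.14 to 0.15. Col12a1, a fibril-bridging collagen of muscle and tendon, was at 3.36, 1.95, 2.66 and 2.01 in EXO-Post BSA and at 2.61, 2.26 and 2.22 in EXO-Post Palm. The 3 EXO-Post Palm arrays lay inside the control range, and the difference was -0.14 ± 0.35 (limma adjusted p = 0.927). Col16a1 was at 1.89, 1.67, 0.87 and -0.12 in EXO-Post BSA and at 1.37, 0.90 and 1.41 in EXO-Post Palm, also inside the control range, with a difference of 0.15 ± 0.46 (limma adjusted p = 0.939); its dimmer probe gave 0.13 ± 0.21. Col9a1, Col9a2 and Col14a1 overlapped between the groups, and Col9a3, Col19a1, Col20a1 and Col22a1 were not tested.

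Among the remaining collagens, 4 were tested and Col13a1 and Col28a1 were not. Col7a1, the anchoring fibril chain of skin, had a normalised log2 signal of -1.09, -0.79, -0.69 and -0.35 in EXO-Post BSA and -0.34, -0.20 and -0.072 in EXO-Post Palm. The groups did not overlap, but by a margin of about 0.01 between the nearest arrays. The difference of 0.53 ± 0.23 had a limma adjusted p of 0.489 and an exact permutation p of 0.0571, and was the only one above 0 at an unadjusted p under 0.05. It was 0.60 within slide 1 and 0.28 within slide 3.

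Col23a1, a transmembrane collagen, was read by 3 probes that did not share a direction. The brightest was at -0.41, 0.0065, 0.18 and -0.42 in EXO-Post BSA and at -0.56, -0.074 and -1.11 in EXO-Post Palm. These groups overlapped, with a difference of -0.42 ± 0.29 (limma adjusted p = 0.675). The other 2 probes gave -0.20 ± 0.24 and 0.18 ± 0.34. Col17a1 and Col25a1, the other transmembrane chains tested, had differences of 0.15 and 0.067 and overlapped.

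**Figure D3:**
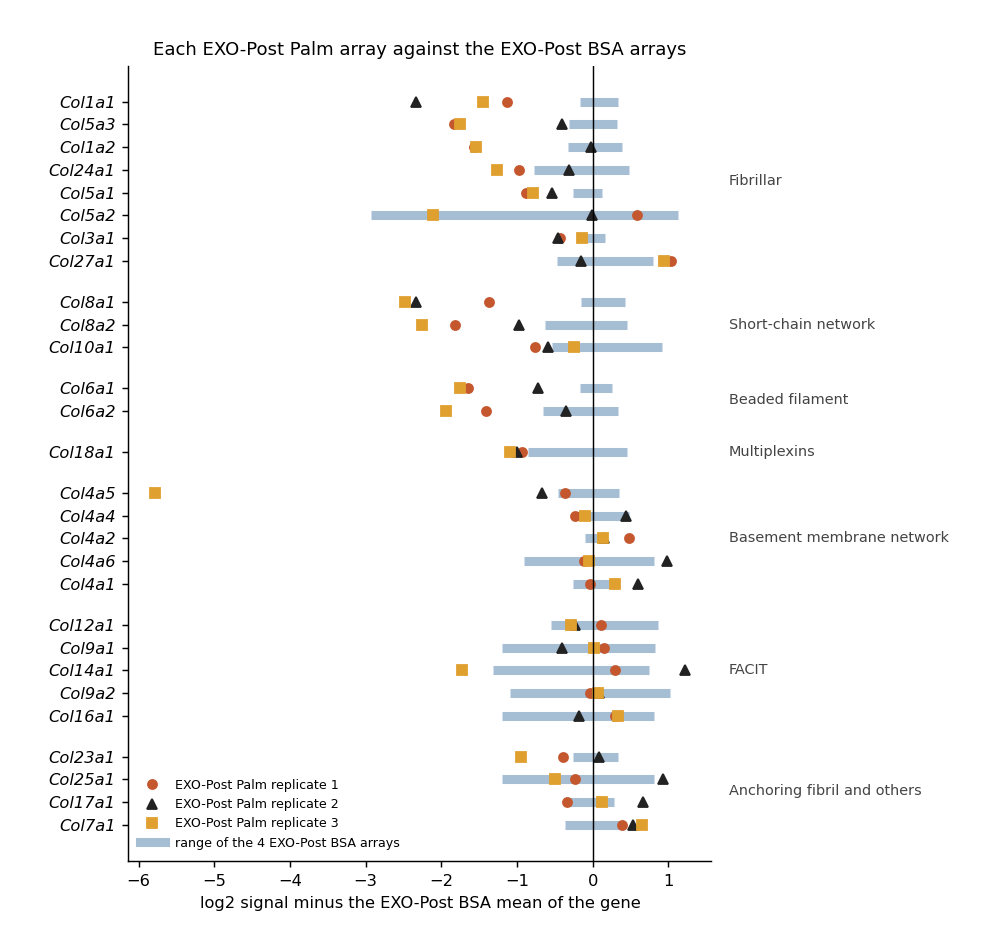
Normalised log2 signal of each EXO-Post Palm array minus the EXO-Post BSA mean of the same gene, for the 28 collagen genes; the blue bar is the range of the 4 EXO-Post BSA arrays. Replicate 2 (black triangle) lies nearer to the controls than replicates 1 and 3 for Col1a2, Col5a3, Col6a1 and Col6a2, but not for Col1a1 or Col8a1, and the square far to the left is Col4a5 on replicate 3.

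The EXO-Post Palm arrays were not alike over the family. The median of the 28 genes stood at -0.35, -0.21 and -0.64 against the EXO-Post BSA mean on replicates 1, 2 and 3, and at 0.0087, 0.090, 0.084 and -0.19 on EXO-Post BSA replicates 1 to 4. The gap to the control mean on replicates 1, 2 and 3 was -1.57, -0.021 and -1.55 for Col1a2, -1.83, -0.40 and -1.75 for Col5a3, and -1.64, -0.72 and -1.76 for Col6a1. For Col1a1 it was -1.13, -2.33 and -1.45, so the array nearest to the controls for these 3 genes was the farthest for Col1a1. Without EXO-Post Palm replicate 2, limma called 4 collagen genes lower (Col1a2, Col5a3, Col6a1 and Col8a2), against 0.204% of all probes, and Col8a1 was at an adjusted p of 0.0590. Each of these 4 was called in 1 of the 7 fits with 1 array left out. Their highest limma adjusted p in those fits was 0.790, 0.666, 0.413 and 0.434, in that order. Slide 4 held EXO-Post Palm replicate 2 alone, so a slide effect and the array itself cannot be told apart for it.

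**Figure D4:**
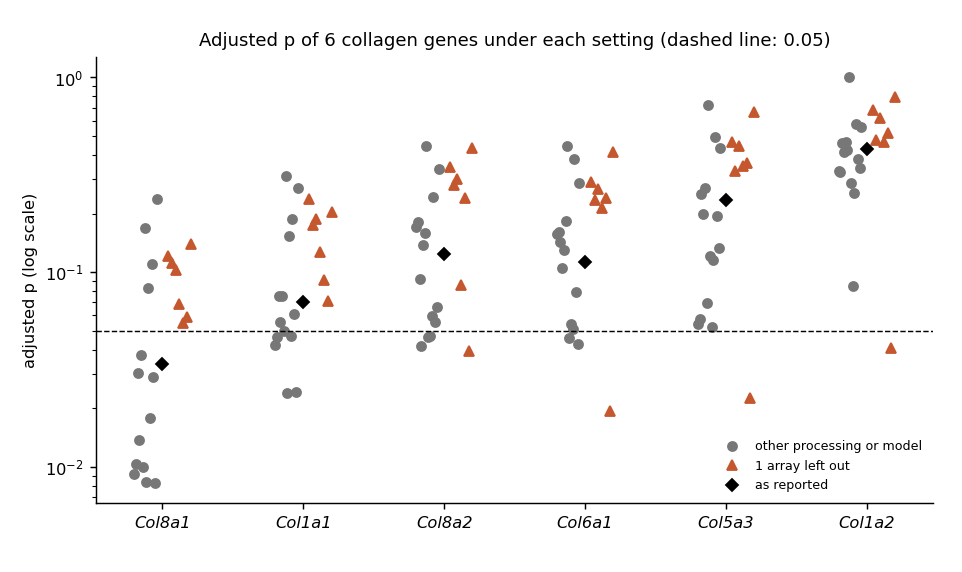
Adjusted p on a log scale for 6 collagen genes as reported (black), under other processing or models (grey circles) and with 1 array left out (orange triangles), with the threshold of 0.05 as a dashed line. Col8a1 is under the line in 10 of 20 limma alternatives and in none of those with an array left out, and Col1a1 is under it in 6. With the methods' t-test adjusted, which is not among the 20, 0 collagen probes were called.

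Collagen chains are hydroxylated, folded, trimmed and cross-linked by a set of enzymes and chaperones. Of 32 such genes on a list, 27 were tested, of which 21 had a difference below 0, against 53.5% of all genes, and 6 above. The median was -0.25, against -0.031 over all genes, and 0 passed an adjusted p of 0.05. Among those below 0, Tll1 at -0.69 had passed the filter through the EXO-Post BSA arrays alone, where it was higher. At an unadjusted p of 0.05, 4 were lower and 0 higher, against 5.46% and 4.7% of all genes. Adamts2, which cuts the amino-terminal propeptide from types I to III, was at 3.47, 3.06, 3.57 and 3.39 in EXO-Post BSA and at 2.92, 2.63 and 2.50 in EXO-Post Palm. These groups did not overlap, with a difference of -0.69 ± 0.22 (limma adjusted p = 0.324), which was -0.25 on the authors' processed values (limma adjusted p = 0.8). P4ha1, a chain of the enzyme that hydroxylates collagen prolines, was also without overlap, at -0.64 ± 0.24 (limma adjusted p = 0.424), and the cross-linking enzyme Loxl4 was at -0.97 ± 0.35 with overlap (limma adjusted p = 0.4).

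Of 19 collagen receptors, binding proteins and partners, 17 were tested, 9 below 0, against 53.5% of all genes, and 8 above. Their median was -0.085, which was 0.090 with slide as a block and 0.068 without EXO-Post Palm replicate 1. Past an adjusted p of 0.05 there were 0. At an unadjusted p of 0.05, 3 were lower and 1 higher, against 5.46% and 4.7% of all genes. Lum, lumican, a leucine-rich proteoglycan that binds fibrils and limits their width, was at 0.80, 0.35, -0.43 and 0.30 in EXO-Post BSA and at 1.80, 1.48 and 1.83 in EXO-Post Palm. All 3 EXO-Post Palm arrays were higher, with a difference of 1.45 ± 0.30 (limma adjusted p = 0.105). Hspg2, perlecan of the basement membrane, was at -0.89 ± 0.23 (limma adjusted p = 0.204). Fmod, fibromodulin, a relative of lumican, was at -0.78 ± 0.20 (limma adjusted p = 0.21). Both were without overlap and below the controls, but Fmod was well above background on only 2 of the 3 EXO-Post Palm arrays. Fmod thus passed the filter through the EXO-Post BSA arrays alone, where it was higher. Tnxb, above 0 at 0.81, passed through the EXO-Post Palm arrays alone, where it was higher.

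Of 11 genes for matrix breakdown and its inhibitors, 7 were tested, 4 below 0, against 53.5% of all genes, and 3 above. Their median was -0.27, which was 0.15 with slide as a block and -0.056 without EXO-Post Palm replicate 2. Timp4, below 0 at -0.54, had passed the filter through the EXO-Post BSA arrays alone, where it was higher. Past an adjusted p of 0.05 there were 0. At an unadjusted p of 0.05, 1 was lower and 2 higher, against 5.46% and 4.7% of all genes. Timp3, an inhibitor of metalloproteinases that stays bound to the matrix, was at 5.74, 5.37, 5.73 and 5.65 in EXO-Post BSA and at 3.93, 4.77 and 3.84 in EXO-Post Palm. The groups did not overlap and replicate 2 was again nearest to the controls, with a difference of -1.44 ± 0.27 (limma adjusted p = 0.0699). Mmp2, the gelatinase that degrades type IV collagen, was higher on all 3 arrays at 0.78 ± 0.27 (limma adjusted p = 0.375), and Timp1 was at 0.70 ± 0.28 with overlap (limma adjusted p = 0.456).

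Markers of other cell states were also read. Of 9 listed genes of myoblasts and dividing cells, 8 were tested, and 5 rose past an adjusted p of 0.05 in limma, against 0.486% of all genes: Ccnb1, a mitotic cyclin, by 2.76, Top2a, the replication topoisomerase, by 2.36, Bub1, a spindle checkpoint kinase, by 1.95, Mki67, the proliferation marker, by 2.12, and Aurka, a mitotic kinase, by 2.40, with adjusted p-values from 0.0108 to 0.0495. With 1 array left out, the call held in 5 of 7 fits for Ccnb1, 3 of 7 for Top2a and 1 of 7 each for Bub1, Mki67 and Aurka. Pax7 and Cd34, the myoblast and progenitor genes of the list, overlapped between the groups at -0.21 and 0.095, and Cdk1, a cell cycle kinase, was at 2.44 (limma adjusted p = 0.133). The summed signal of the 8, as a multiple of the 75th percentile of the array, was 6.81 to 10.5 in EXO-Post BSA and 12 to 32.7 in EXO-Post Palm. Such sums weigh each gene by the brightness of its probe, and Cd34, at 1.94 to 2.84 in EXO-Post BSA, is part of this one. The sum thus does not measure the dividing genes alone. For 15 markers of differentiated muscle 13 were below 0, against 53.5% of all genes, and 2 above. The median difference was -0.21 and 0 were called. At an unadjusted p of 0.05, 1 was lower and 1 higher, against 5.46% and 4.7% of all genes. These were Myh8 at -0.65, or -0.27 on the authors' processed values, and Des at 0.50. Myh3 was at -0.46, and the summed signal was 1170 to 1410 against 984 to 1110. For 6 tested of 7 fibroblast markers 2 were below 0 and 4 above, the median was 0.36 and 0 were called. At an unadjusted p of 0.05, 0 were lower and 1, Lum of the partner list above, was higher, against 5.46% and 4.7% of all genes. Pi16 was at 0.42, Cd248 at -0.38 and Dpt at -0.71. The summed signal was 4.70 to 6.44 against 6.90 to 7.88. Lum, higher by 1.45, is part of these sums. Sums without it were not taken, so these ranges give no reading of the other fibroblast markers. Tcf21, the seventh, was not well above background. Of 6 adipocyte markers, Cidec alone was tested, at -0.35, and Adipoq, Plin1, Fabp4, Pck1 and Lep were not. Cidec had passed the filter through the EXO-Post BSA arrays alone, where it was higher. It was well above background on 1 EXO-Post Palm array. The part of dividing, muscle and fibroblast cells in the collagen differences was not tested.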

How the data were processed

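Total RNA of recipient C2C12 cells was hybridised to 1-colour Agilent mouse arrays, 1 sample an array. The deposited scanner files hold the processed signal intensity, background-subtracted by Agilent Feature Extraction (10.7.3.1, and 11.5.1.1 for EXO-Post BSA replicate 3, per the file headers; 9.1 with limma per the submitters' processing notes). The authors also deposited a table of log2 values on which each array has nearly the same median; it was matched to the scanner files by spot order and used as an alternative. Coordinates are those of the headers' build mm9.

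For each array, the log2 of the 75th percentile over 43020 non-control spots was subtracted from the log2 signal, outlier spots were left out and spots of a probe were averaged. Of 39429 probes, 21589 (17477 gene names) were well above background on at least 3 arrays of 1 group and were tested with limma 3.58.1 in R 4.3.3 (lmFit, eBayes, Benjamini-Hochberg, threshold 0.05). The fit was first checked on simulated data. No spot was saturated, and the number of arrays limits the precision. The labels call the arrays biological replicates without naming separate cultures, so p-values measure the spread between these samples. Where background correction was redone, the median spot signal was used for all arrays, since 1 file lacks the mean. Sequences and symbols came from RefSeq tables, in which 27 of 28 array accessions were found, each with the array's symbol, and figures were drawn with matplotlib 3.10.9 in Python 3.11.15.

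The members and gene lists were chosen with earlier results of these data known. A gene is read by its brightest probe. Values on every array are given for genes past the threshold, the 2 with the lowest unadjusted p of each class and 10 chains listed by name (of which Col15a1 was not tested), and, in the other lists, for those past the threshold or among the 3 with the lowest unadjusted p, in part as the difference alone. Alternatives changed the normalisation, filter, model and arrays.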

Additional observations from a re-analysis of the deposited data

Results flagged for a closer look

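Within the 4 EXO-Post BSA arrays, 1 array stood far from the other 3 for 2 of the 28 collagen genes: the gap to the nearest array, over the whole range of the group, was above Dixon's 95% critical value for 4 samples. Chance alone puts about 5 percent of groups past it. For Col8a1 the array was EXO-Post BSA replicate 1, at a normalised log2 signal of 1.77 where the others were at 1.19 to 1.23, with a ratio of 0.931. For Col5a2 it was EXO-Post BSA replicate 4, at -2.37 where the others were at 1.41 to 1.69, with a ratio of 0.932.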

How the results depend on the processing

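The count of collagen probes called lower was 1 in the reported fit, against 0.0695% of all probes. It was 2 with normexp or floored subtraction and quantile normalisation, median scaling or the authors' processed values. Slide as a random effect and an adjusted p of 0.10 also gave 2. In these settings 0.088% to 0.185% of all probes were called lower. The count was 4 over probes well above background on all arrays (0.191% of those probes) and 3 with a trended and robust fit (0.162%). It was 0 without a probe filter or with the methods' t-test adjusted. The methods' t-test unadjusted gave 9 lower, against 5.16% of all probes, and 1 higher, against 4.6%. With slide as a block the single call was Col8a2. Leaving out 1 array gave 4 calls lower without EXO-Post Palm replicate 2 and 0 without any other array, and a median difference of the genes from -0.59 (without EXO-Post Palm replicate 2) to -0.14 (without EXO-Post Palm replicate 3), with -0.21 and -0.22 without EXO-Post BSA replicates 1 and 3. Over all probes, 115 were called in the reported fit, 0 without a filter and 0 to 202 with 1 array left out.

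The replicate numbers gave no sign of pairing, with correlations of deviations of 0.121, -0.151 and -0.147 for same-numbered arrays. The replicate block may thus share only a number. Among arrays on 1 slide, EXO-Post Palm replicate 1 was at 0.121 and 0.306 with EXO-Post BSA replicates 1 and 2. EXO-Post Palm replicate 3 was at 0.175 with EXO-Post BSA replicate 4. The highest value on different slides was 0.201. In the fit with slide as a random effect, the correlation within slides was 0.233. With the replicate block, over 6 arrays, 0 collagen probes were called lower, Col8a1 was at a limma adjusted p of 0.110 and Col16a1 at -0.25.

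Of the 28 genes, 18 kept their direction under every alternative that could give a value. Those that changed it were Col4a4, Col4a6, Col9a1, Col9a2, Col14a1, Col17a1 and Col25a1, and, of the genes described by array, Col12a1 (0.058 with slide as a block, -0.32 to 0.15 with 1 array left out), Col5a2 (0.18 with slide as a block, -1.48 to 0.29 with 1 left out) and Col16a1 (-0.071 with array weights, -0.25 to 0.42 with 1 left out). Cidec changed too (-0.72 to 0.019 with 1 left out). The causes were not tested. With normexp or floored subtraction and quantile normalisation, Bub1 was at 1.22 and 1.13, Fmod at -0.46 and -0.41 and Loxl4 at -0.51 and -0.47, over 1.5 times smaller than reported. Genes near background, such as Col4a5 on 1 array, are limited by signal over background.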
